A study of Mus musculus with 43 samples.

Results

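The nuclear genes of the respiratory chain were followed across liver, skeletal muscle, brain and white adipose tissue (WAT) of mice. The members were the entries of the deposited expression table that name a single gene whose symbol begins with Nduf, Uqcr, Atp5 or Cox4 to Cox8, or that is Sdha, Sdhb, Sdhc or Sdhd, with names containing -ps left out. There were 88 members among the 42349 entries of the table. The complex of a member was read from the start of its symbol alone. Atp5sl was thus placed with complex V, and Ndufa4 and Ndufa4l2 with complex I, whichever complex their products serve. Complex I had 43 (36 subunits and 7 assembly factors named Ndufaf), complex II had 4, complex III had 8, complex IV had 18 (17 subunits and the relative Cox7a2l) and complex V had 15 (14 subunits and the relative Atp5sl). Poly-A RNA of 43 libraries was sequenced on an Ion Proton instrument, and each value is an FPKM, reads scaled to transcript length and to library size, that the authors pooled over the 2 or 3 libraries of a group. The 16 groups combined the 4 tissues with wild type (WT) or Irs1-/- (KO) genotype, a global deletion of the gene for insulin receptor substrate 1, and with ad libitum feeding (AL) or 30% dietary restriction (DR) for 12 months. All mice were females of 15 months on the same chow, their strain was not given in the labels, and the WAT was inguinal. WT_AL had 2 libraries in each tissue, as had WT_DR in WAT, and the other groups had 3. Irs1 itself was lower in the group labelled KO than in the group labelled WT of the same diet in only 1 of 8 comparisons (WAT under DR, 2.58 against 6.56 FPKM), so every direction below is that of the labelled groups.

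The respiratory chain moves electrons from NADH (complex I) and succinate (complex II) through complex III to complex IV, which passes them to oxygen, and complex V uses the proton gradient so made to form ATP. Most subunits are encoded in the nucleus and made in the cytosol, while a small core is encoded by mitochondrial DNA, and assembly factors help to put the parts together without staying in the finished complex. Several small subunits of complex IV exist as alternative forms from separate genes, of which Cox6a2, Cox7a1 and Cox8b are known as the heart and skeletal muscle forms and Cox6a1, Cox7a2 and Cox8a as the forms of other tissues.

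The promoters of 5 of these complex IV genes are shown because their pairs of forms gave the largest contrasts between tissues. Each is the stretch of 150 bases directly before the most upstream annotated start, 5′ to 3′ on the gene's strand, from the RefSeq windows of GRCm38.p6, and capitals mark a match to the NRF1-like motif.
Cox6a1 (chr5:115348982-115349131, minus strand): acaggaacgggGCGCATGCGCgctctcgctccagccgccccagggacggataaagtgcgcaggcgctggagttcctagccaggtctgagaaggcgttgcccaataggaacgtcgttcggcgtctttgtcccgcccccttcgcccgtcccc
Cox7a1 (chr7:30183994-30184143, plus strand): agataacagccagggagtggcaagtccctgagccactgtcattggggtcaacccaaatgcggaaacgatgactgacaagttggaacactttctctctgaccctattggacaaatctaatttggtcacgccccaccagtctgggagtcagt
Cox7a2 (chr9:79759879-79760028, minus strand): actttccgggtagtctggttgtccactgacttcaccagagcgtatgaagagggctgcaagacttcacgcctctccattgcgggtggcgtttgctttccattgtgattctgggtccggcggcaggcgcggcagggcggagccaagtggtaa
Cox8a (chr19:7217617-7217766, minus strand): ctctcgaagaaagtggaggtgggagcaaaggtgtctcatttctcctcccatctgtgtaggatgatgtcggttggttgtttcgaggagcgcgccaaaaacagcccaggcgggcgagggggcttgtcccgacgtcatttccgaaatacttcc
Cox8b (chr7:140900447-140900596, minus strand): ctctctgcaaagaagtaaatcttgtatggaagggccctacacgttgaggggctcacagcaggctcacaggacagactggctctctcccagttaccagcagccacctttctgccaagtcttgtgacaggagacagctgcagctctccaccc
The Cox6a1 stretch carried 2 overlapping matches to GCGCATGC, beginning 139 and 137 bases before the start, and it overlaps an exon of the annotated gene Gm42903. None of the stretches of Cox7a1, Cox7a2, Cox8a and Cox8b carried GCGCATGC, the ETS core CCGGAAG or the ERR core TGACCTT on either strand, and Cox6a2 had no window to show. A window was found for 69 of the 88 members. Over the 250 bases before a start, read on both strands and over all windows of a gene, GCGCATGC was held by 8 of the 69 members (11.6%) and by 2.56% of 27025 genes, CCGGAAG by 13 members (18.8%) and by 7.83% of genes, and TGACCTT by 4 members (5.8%) and by 4.70% of genes. The members with the NRF1-like motif were Atp5k, Atp5l, Cox6a1, Ndufa11, Ndufa6, Ndufa8, Ndufaf4 and Sdhb, 1 or more from each of complexes I, II, IV and V.

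No values per library or counts were used, so the depth is unknown and the error of a value is the SD taken from the authors' 95% interval. The median SD of the members ran from 22.1% of the FPKM in WT_DR muscle to 58.5% in WT_DR WAT. Members are short: 40 of 88 (45.5%) had a longest annotated transcript under 1 kb, against 21.7% of 19097 entries expressed at 1 FPKM or more in a group, and the group values of short abundant transcripts moved together in several comparisons, so the median of other short abundant entries (longest transcript under 1 kb, mean of 50 FPKM or more, neither members nor ribosomal proteins) is given beside that of the members. Defining markers fitted the labelled tissues, with liver markers summing to between 60207 and 143331 FPKM in liver muscle markers to between 156458 and 240301 FPKM in muscle, adipocyte markers to between 16529 and 28321 FPKM in WAT, and neuronal markers to between 1021 and 1512 FPKM in brain. Markers of other tissues were found in some groups: muscle markers summed to 108 FPKM in KO_AL liver against 2.66 in WT_AL liver, liver markers to 2645 in WT_DR muscle against 21.2 in WT_AL muscle, and the brown fat gene Ucp1 stood at 66.9 FPKM in KO_AL muscle against 0.0897 in WT_AL muscle. All 5 red blood cell markers were above 1 FPKM in every group and summed to between 950 and 21030 FPKM. Adipocyte markers summed to between 697 and 2854 FPKM in muscle, immune markers to no more than 102 FPKM in any group (highest in WAT), and glial markers to between 1901 and 5038 FPKM in brain. Markers of epithelium summed to between 234 and 327 FPKM in liver, and in WAT to 16.9 and 25.9 FPKM in WT_AL and WT_DR and 127 and 100.3 in KO_AL and KO_DR. A lower share of cells and less RNA per cell cannot be told apart in such tissue samples.

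Skeletal muscle had the highest levels of the chain and brain mostly the lowest. The median over all members in WT_AL was 219 FPKM in muscle, 120 in liver, 83.9 in WAT and 49.8 in brain. In KO_DR the medians were 292, 256, 119 and 53.2 FPKM in the same order, and in WT_DR 288, 170, 145 and 63.5. In KO_AL brain (78.3 FPKM) stood above WAT (70.0), with muscle at 308 and liver at 216. By member, 45 of 88 had their highest level in muscle under all 4 combinations of genotype and diet, 8 in liver and 3 in WAT, and 31 had their lowest level in brain under all 4. The 3 that were always highest in WAT were Cox4i2, Cox6b2 and Ndufa4l2, which are low-level alternative forms, and the 8 of liver were Atp5d, Atp5sl, Cox4i1, Cox8a, Ndufa3, Ndufs6, Sdhd and Uqcrq. The tissue order of Cox4i1 was not resolved, with 1502 FPKM (SD 1626) in WT_AL liver and 957 (SD 5726) in WT_AL muscle. Subunits were more abundant than assembly factors in every group, as the medians of 223 FPKM over 79 subunits and 15.6 FPKM over the 9 others show for WT_AL muscle, and 58.9 and 8.94 FPKM for WT_AL brain.

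**Figure D1:**
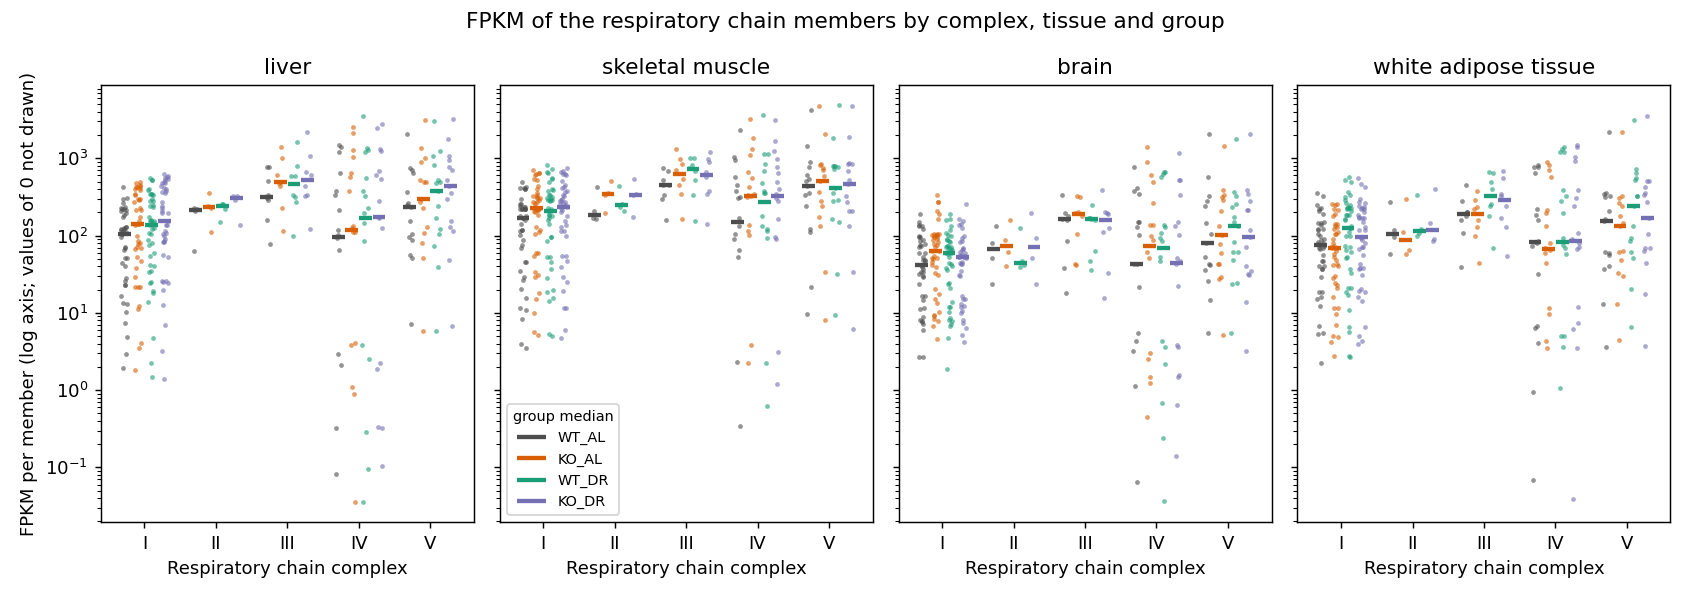
Each point is the FPKM of 1 member (vertical log axis, values of 0 left out) by complex, in 4 panels for the tissues, with colours for the groups and bars for the median of a complex. Muscle medians of complex V lie between 409 and 505 FPKM and brain medians between 80.2 and 132, and the wide spread of complex IV comes from its alternative forms.

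Within a complex the members spanned a wide range. Among the members of complex I in WT_AL, the highest were Ndufs5 in liver (422 FPKM) and Ndufv1 in brain (193) and WAT (350.5). The lowest were the assembly factor Ndufaf5 in liver (1.91 FPKM) and WAT (2.25), Ndufa4l2, counted here by its name only, in muscle (3.46) and the assembly factor Ndufaf6 in brain (2.69). Ndufv1 encodes a core subunit of the matrix arm, and Ndufs5 an accessory subunit. In complex II the flavoprotein Sdha was the highest member in muscle (429 FPKM), brain (133) and WAT (269), and the membrane anchor Sdhd in liver (227). The lowest was the iron-sulphur subunit Sdhb in liver (62.7 FPKM) and brain (23.9) and Sdhd in muscle (162) and WAT (57.1), while Sdhc, the other anchor, lay at 221, 166, 81.0 and 117 FPKM in liver, muscle, brain and WAT. In complex III the core subunit Uqcrc2 was lowest in liver (77.5 FPKM), muscle (159) and WAT (39.0) and Uqcrb in brain (18.2). The highest of complex III was the small subunit Uqcrq in liver (770 FPKM) and WAT (447) and the core subunit Uqcrc1 in muscle (747) and brain (339). In complex V the catalytic beta subunit Atp5b led with 2072, 4251, 2082 and 2211 FPKM in liver, muscle, brain and WAT, and Atp5s, the factor B gene, was lowest with 7.08, 9.53, 5.43 and 3.62. Atp5b was the highest member of all in 15 of the 16 groups, and Cox7b, a small subunit of complex IV, in WT_DR liver (3569 FPKM). In complex IV, Cox4i1, the common form of subunit IV, was highest in liver (1502 FPKM), brain (776) and WAT (820) and Cox7b in muscle (2332). The rank of Cox4i1 is uncertain, as its SD was 1626, 1879 and 1060 FPKM in liver, brain and WAT, larger than its value in each. The lowest of complex IV above 0 were Cox4i2 in liver (0.0813 FPKM), Cox6b2 in muscle (0.347) and Cox7b2 in brain (0.0647) and WAT (0.0696). Cox7a2l, a relative that takes part in supercomplexes, varied least over the 16 groups, from 68.3 to 149 FPKM, a range of 2.18-fold.

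Among the assembly factors of complex I, Ndufaf1, Ndufaf4, Ndufaf5 and Ndufaf6 were highest in muscle under all 4 combinations of genotype and diet, while the highest tissue of the others varied. Ndufaf1, a core part of the machinery that builds the membrane arm of complex I, was at 44.9, 33.9, 36.5 and 29.2 FPKM in muscle of WT_AL, KO_AL, WT_DR and KO_DR and at no more than 25.0 in the other tissues. Ndufaf6 was also highest in muscle (26.4, 53.8, 52.1 and 39.0 FPKM) and lowest in brain or WAT (2.69 in WT_AL brain, 4.95 in KO_AL WAT). Ndufaf5, which modifies a subunit of the matrix arm, ran from 8.28 to 14.3 FPKM in muscle and from 1.37 to 3.48 in liver. Ndufaf2 and Ndufaf7 gave no clear order of tissues, with ranges of 9.77 to 21.6 and 2.78 to 7.76 FPKM over all groups. Ndufaf3 was the highest of the 7 in WAT, at 29.3, 20.8, 37.2 and 31.0 FPKM in the 4 groups. Ndufaf4 lay between 15.6 and 19.4 FPKM in muscle and between 4.81 and 13.8 elsewhere. Atp5sl was highest in liver, from 38.8 to 51.9 FPKM, and lowest in WAT, from 12.8 to 20.1.

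The 4 genes of complex II, which is also an enzyme of the citric acid cycle, differed in how they spread over the tissues. Sdha read 429, 511, 433 and 545 FPKM in muscle of WT_AL, KO_AL, WT_DR and KO_DR and between 127 and 195 FPKM in brain. Sdhb read 208, 331, 259 and 333 FPKM in muscle and 23.9, 60.4, 38.7 and 23.3 in brain. For Sdha the FPKM of all muscle groups lay above those of all groups of the other tissues, the highest of which was KO_DR WAT (399 FPKM), and for Sdhb likewise, with WT_DR liver next (151 FPKM). The order of Sdha was not resolved, since its SD was 318 FPKM in WT_AL muscle and 632 in KO_DR WAT. Its difference between muscle and liver in WT_AL was 1.05 on the log2 scale (SE 1.69). Sdhd read 227, 228, 224 and 285 FPKM in liver and 162, 198, 207 and 174 in muscle, so it was the 1 gene of the complex with its highest level in liver under all 4 combinations. Sdhc stood at 221, 354, 255 and 327 FPKM in liver and 166, 359, 235 and 346 in muscle, and these ranges overlap.

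The alternative forms of complex IV divided the tissues sharply. Cox6a2 (GRCm38, chr7:128205435-128206387) was at 1050, 1316, 1141 and 1249 FPKM in muscle of WT_AL, KO_AL, WT_DR and KO_DR. In liver the same groups read 0, 4.10, 0.0353 and 0.103 FPKM, in brain 4.37, 3.07, 4.27 and 3.79, and in WAT 0.943, 9.77, 1.06 and 3.52. No group outside muscle came near the muscle level. Its partner Cox6a1 stood at 105, 320, 132 and 303 FPKM in muscle, below every group of the other tissues, which lay between 350 (WT_AL brain) and 1299 FPKM (WT_DR liver). Cox6a2 therefore made 90.9% of the sum of the pair in WT_AL muscle, 80.4% in KO_AL, 89.7% in WT_DR and 80.5% in KO_DR. The log2 ratio of Cox6a2 to Cox6a1 in muscle was 3.33 (SE 0.61), 2.04 (SE 0.59), 3.12 (SE 0.42) and 2.04 (SE 0.54) in that order. In liver and in WAT, Cox6a2 was highest in KO_AL. Muscle markers also stood higher there (108 against 2.66 FPKM in WT_AL liver, 1520 against 536 in WT_AL WAT). The highest single muscle marker in WT_AL WAT read 507 FPKM, so the sum of 536 came mostly from that marker. Cox6a2 in KO_DR WAT also lay above WT_AL WAT (3.52 against 0.943 FPKM), with muscle markers at 854. The KO_AL liver value of 4.10 FPKM lay within the range of the brain groups. The part of muscle tissue in these levels was not tested.

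Cox8b and Cox8a, the forms of subunit VIII, followed the same division. Cox8b was at 577, 1091, 853 and 987 FPKM in muscle of WT_AL, KO_AL, WT_DR and KO_DR and at no more than 3.26 FPKM in any group of liver or brain. In WAT it was at 31.7, 43.5, 57.0 and 67.1 FPKM in the same order, above both other tissues. Muscle markers summed to 536, 1520, 496 and 854 FPKM in these WAT groups and brown fat markers to 15.0, 48.6, 79.0 and 51.7, and their part in the Cox8b level was not tested. The highest single muscle marker read 507, 337, 114 and 327 FPKM in these groups, so the WT_AL sum came mostly from that marker. Cox8b made between 71.1% and 82.5% of the pair in muscle and between 4.57% and 6.78% in WAT. Cox8a stood at 167, 314, 181 and 401 FPKM in muscle and between 417 (WT_AL brain) and 1300 FPKM (KO_DR liver) elsewhere. Cox7a1 and Cox7a2 were more even in muscle, where Cox7a1 was at 64.6, 102, 114 and 97.2 FPKM and made between 37.4% and 55.3% of the pair, with log2 ratios from -0.74 (SE 0.56) to 0.31 (SE 0.63). Outside muscle Cox7a1 reached at most 7.39 FPKM, in KO_DR WAT, and Cox7a2 lay between 21.5 and 193 FPKM.

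**Figure D2:**
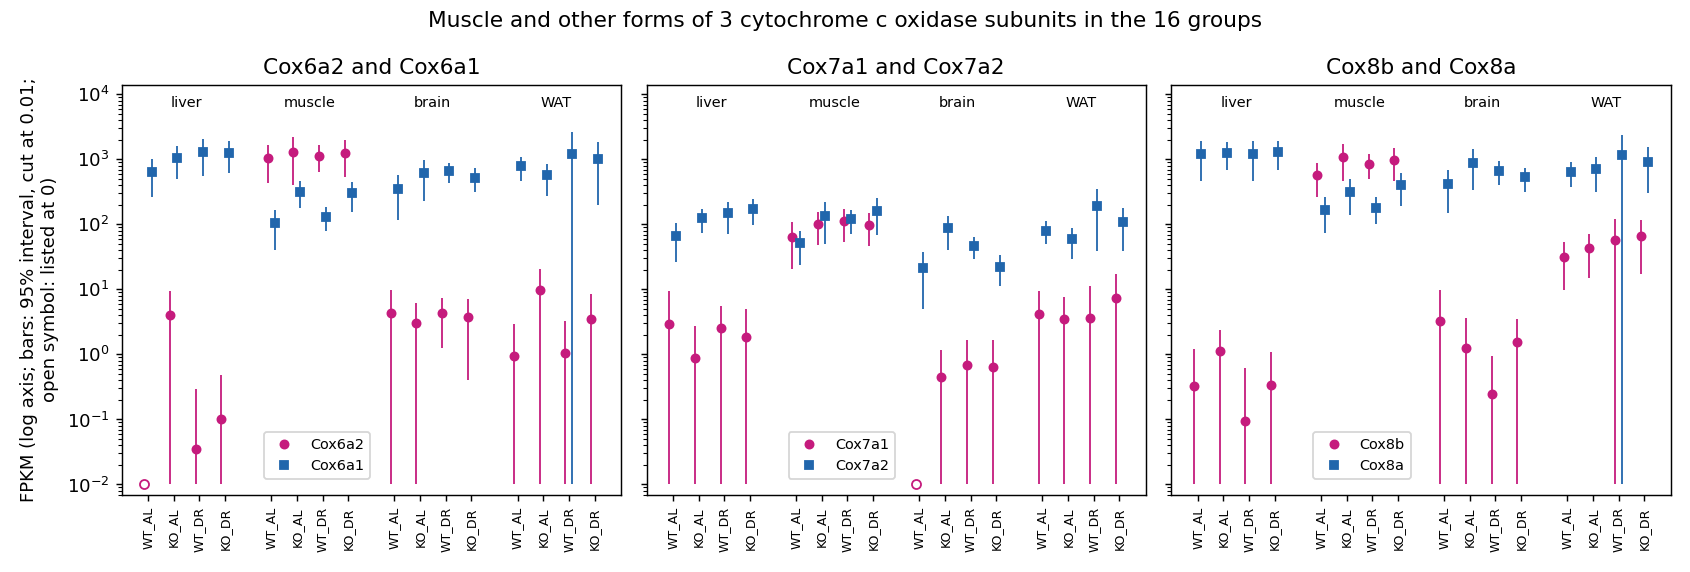
Each panel shows the 2 forms of a complex IV subunit as FPKM (vertical log axis) in the 16 groups, with bars for the authors' 95% interval, cut at 0.01, and open symbols for values listed at 0. Cox6a2 and Cox8b exceed their partners in the 4 muscle groups and in no other group, while Cox7a1 and Cox7a2 overlap in muscle.

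The remaining alternative forms were minor in all 4 tissues. Cox4i2, the form of subunit IV known from lung and low oxygen, read 6.41, 4.28, 5.02 and 6.19 FPKM in WAT of WT_AL, KO_AL, WT_DR and KO_DR and at most 3.07 FPKM elsewhere, where Cox4i1 was between 617 and 2436 FPKM over all groups. Cox6b2, a testis form, ran from 0.347 to 11.9 FPKM against 47.1 to 684 FPKM for Cox6b1. Cox7b2 reached at most 0.140 FPKM and Cox8c was listed at 0 in every group. Ndufa4l2, a relative of Ndufa4 that is induced by low oxygen, was highest in WAT with 18.4, 7.01, 10.9 and 18.5 FPKM in WT_AL, KO_AL, WT_DR and KO_DR, and Ndufa4 ran from 97.7 to 647 FPKM. Of the genes for the c-ring subunit of ATP synthase, Atp5g1 was at 533, 505, 409 and 469 FPKM in muscle against 40.4, 48.4, 61.2 and 68.9 in WAT, and Atp5g3 ran from 238 to 1083 FPKM. Atp5g2 shares its entry with a microRNA gene and was left out by the rule.

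Tissues were compared within WT_AL with a two-sided Wald test on the log2 ratio of FPKM, adjusted by the Benjamini-Hochberg method over all entries tested, and an entry was called at an FDR of 10%. Whether the tissues came from the same mice was not used, and each WT_AL value rests on 2 libraries. Between muscle and brain, 42 of 85 members tested were called higher in muscle and 1 was called lower, where 9.10% of all 15487 entries were called higher and 15.7% lower. The median difference of members was 1.63 on the log2 scale, against -0.16 over all entries and 0.52 over other short abundant entries. By complex, 21 of 43 members of complex I were called higher in muscle, 2 of 4 of complex II, 6 of 8 of complex III, 5 of 15 of complex IV and 8 of 15 of complex V. The largest called differences were those of Cox6a2 (7.91, SE 0.97, 95% interval 6.01 to 9.81), Cox8b (7.47, SE 1.51, 95% interval 4.50 to 10.44) and Uqcrb, which binds near the quinone site of complex III (331 against 18.2 FPKM, 4.18, SE 1.58, 95% interval 1.08 to 7.28). Cox6a1 was the member called lower (-1.74, SE 0.65, 95% interval -3.01 to -0.47). The order of muscle and brain was stable over the groups: 73 of 85 members were higher in muscle under all 4 combinations of genotype and diet, and 39 were called higher in all 4. These counts are of members alone, without the share of all entries that did so. The median of members was 1.63, 1.72, 2.06 and 2.19 in WT_AL, KO_AL, WT_DR and KO_DR. That of all entries was -0.16, -0.27, -0.07 and -0.33. With a t distribution on the few degrees of freedom that the libraries leave, 0 members were called in any of the 6 tissue pairs.

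Muscle exceeded WAT in 34 of 86 members called, with 2 called lower, where 9.20% and 14.9% of all entries were called in those directions. The median was 1.06 for members, -0.32 for all entries and 0.03 for other short abundant entries. The largest called differences were those of Cox6a2 (10.12, SE 1.62), Cox8b (4.19, SE 0.64) and Cox7a1 (3.97, SE 1.06), and Cox6a1 (-2.90, SE 0.53) and Cox8a (-1.95, SE 0.50) were lower in muscle. Between muscle and liver, 11 of 85 members were called higher in muscle and 4 lower, where 8.40% of all entries were called higher and 12.3% lower. The median of members was 0.74 and that of all entries -0.01. Cox8b (10.79, SE 1.96), Cox7a1 (4.45, SE 1.64) and Ndufv2, a subunit of the NADH-binding end of complex I (118 against 26.2 FPKM, 2.18, SE 0.58), led the higher ones. Cox8a (-2.84, SE 0.60), Cox6a1 (-2.63, SE 0.61), Ndufc2 (-1.71, SE 0.64) and Ndufs5 (-1.40, SE 0.54) were the lower ones. Of these 4, Cox8a and Cox6a1 kept the order in the other groups. For Ndufc2 muscle was above liver in KO_AL (357 against 273.5 FPKM) and WT_DR (161 against 153), and for Ndufs5 in KO_AL (696 against 458 FPKM), WT_DR (402 against 284) and KO_DR (662 against 476).

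Of 84 members tested, 14 were called lower in brain than in liver and 0 were called higher, where 10.3% of all entries were called lower and 11.5% higher. The median of members was -1.18 and that of all entries 0.05, and other short abundant entries had a median of -0.91. Ndufb4 (8.08 against 51.4 FPKM, -2.67, SE 0.90), Ndufv3 (47.7 against 235, -2.30, SE 0.84) and Ndufa3 (38.9 against 183, -2.24, SE 0.86), all accessory subunits of complex I, had the largest called differences. At an unadjusted p under 0.05, 0 members were higher in brain than in liver, and 29.8% of members and 27.6% of all entries differed in either direction. Of 85 members, 7 were called lower in WAT than in liver, led by Sdhd (57.1 against 227 FPKM, -2.00, SE 0.50), Atp5sl (13.2 against 51.9, -1.98, SE 0.63) and Atp5g1 (40.4 against 154, -1.93, SE 0.54). Only Cox8b was called higher in WAT than in liver (6.60, SE 1.98), and 11.1% and 9.43% of all entries were called lower and higher. Of 85 members, 12 were called lower in brain than in WAT and 0 higher (11.2% and 15.7% of all entries), with a median of -0.67 that was -0.15 when centred on short abundant entries and turned to 0.26 when centred on all entries under 1 kb. These were led by Ndufab1, the mitochondrial acyl carrier protein (7.75 against 37.2 FPKM, -2.26, SE 1.01), Ndufb4 (-2.20, SE 0.78) and Sdhb (-1.99, SE 0.58). At an unadjusted p under 0.05, 1 member was higher in brain than in WAT, and 22.4% of members and 31.5% of all entries differed in either direction. The order of brain and WAT differed in KO_AL, where Ndufb4 read 31.0 FPKM in brain and 29.8 in WAT and Sdhb 60.4 and 57.9.

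**Figure D3:**
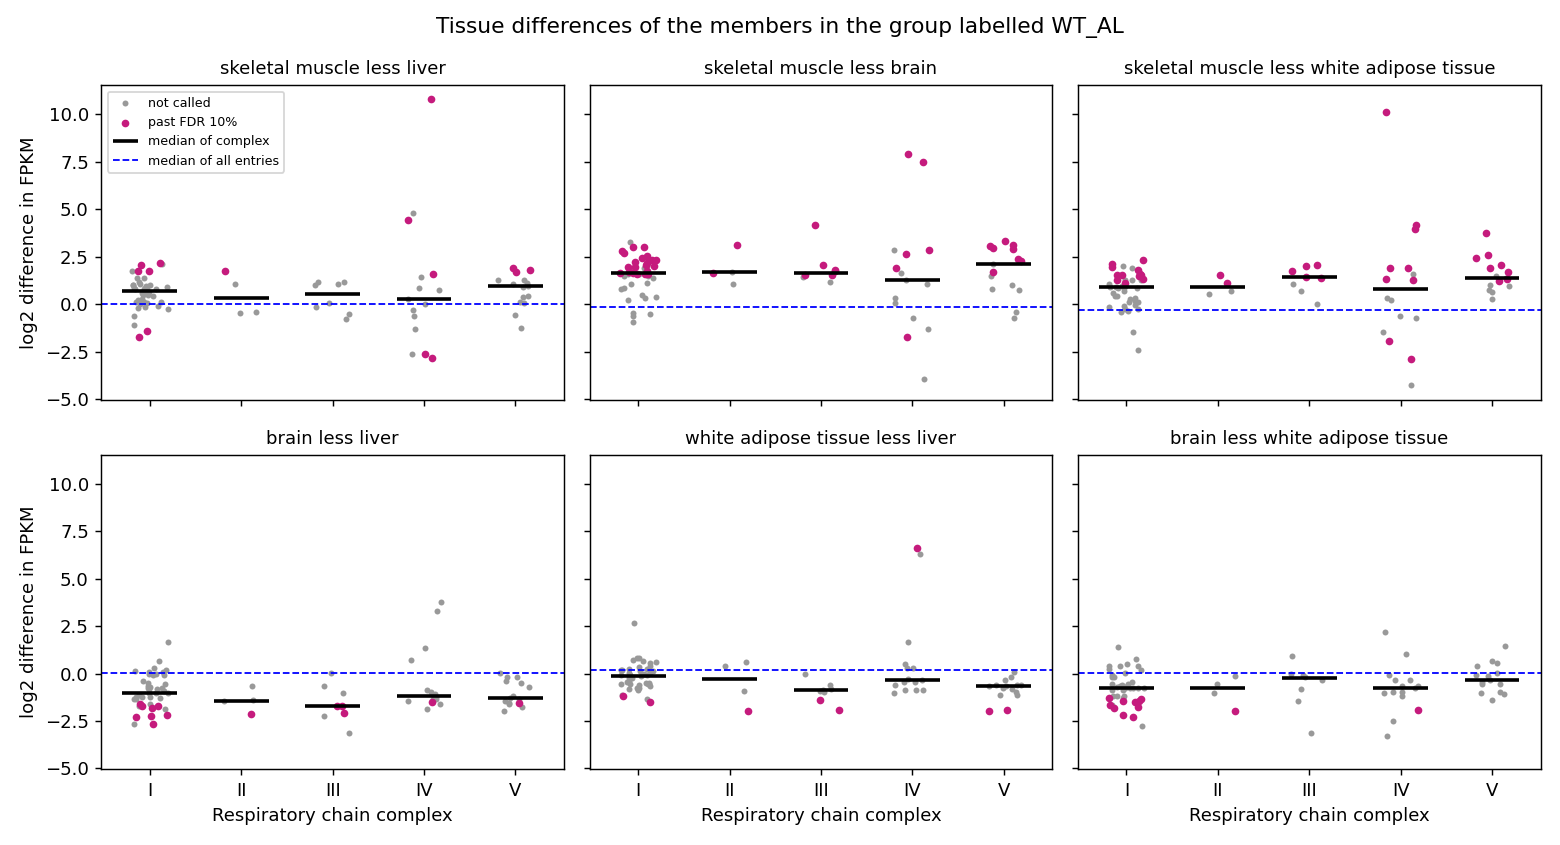
Each point is the log2 difference in FPKM of 1 member between 2 tissues of WT_AL, by complex, coloured where it passed the FDR of 10%, with black bars for the median of a complex and a dashed line for the median of all entries. In the panel of muscle less brain all 5 complexes have medians above 1 (1.28 to 2.10), while in muscle less liver they run from 0.26 to 0.96.

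The tissue differences of other genes of the pathway varied by list, and the share of all entries called higher in muscle was 9.10% against brain and 9.20% against WAT. Of the 13 subunits encoded by mitochondrial DNA, 6 were entries of their own in the table, and between muscle and brain 5 of the 6 were called higher in muscle, mt-Nd3 by 5.94 and mt-Co1 by 3.81 on the log2 scale. Cytochrome c1 (Cyc1, 1.68), a complex III subunit that the symbol rule does not cover, and cytochrome c (Cycs, 2.94) were both called higher in muscle than in brain. Of 13 enzymes of the citric acid cycle, 7 were called higher in muscle than in brain and 0 lower, with Sucla2 (3.26) and Idh3a (2.73) among them. Of 33 further assembly factors tested in that pair, 2 were called higher, Tmem70 (1.53) and Uqcc2 (1.40). Of 12 regulators of mitochondrial biogenesis, Yy1 (1.89) was called higher in muscle than in brain, and Tfb2m (1.51) and Ppargc1a (4.15), the coactivator PGC-1 alpha, higher than in WAT.

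In muscle, 3 small accessory subunits of complex I rose with genotype or diet. Ndufs5 (GRCm38, chr4:123712710-123718202) was at 159.5 FPKM in WT_AL, 696 in KO_AL, 402 in WT_DR and 662 in KO_DR muscle, so WT_AL was the lowest of the 4. The difference of KO_AL from WT_AL was 2.13 on the log2 scale (SE 0.57, 95% interval 1.00 to 3.25), and that of WT_DR from WT_AL was 1.33 (SE 0.40, 95% interval 0.54 to 2.12), and both passed the FDR of 10%. Ndufc2 (chr7:97400003-97407802) was at 69.7, 357, 161 and 261 FPKM in the same order. It rose in KO_AL by 2.36 (SE 0.65, 95% interval 1.09 to 3.63), and its difference in WT_DR was 1.20 (SE 0.50), which did not pass. Ndufc1 (chr3:51404677-51408988), the partner of Ndufc2 in the membrane arm, was at 241, 606, 821 and 682 FPKM. It rose in WT_DR by 1.77 (SE 0.53, 95% interval 0.73 to 2.82), while its difference in KO_AL, 1.33 (SE 0.59), did not pass. KO_AL and WT_DR were both set against the same WT_AL group of 2 libraries.

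These were the only members called in muscle: 2 of 86 were higher in KO_AL, against 0.454% of 14102 entries, and 2 of 85 in WT_DR, against 0.795% of 14089 entries. At an unadjusted p under 0.05, 8 members (9.30%) differed in KO_AL and 6 (7.06%) in WT_DR, against 3.18% and 5.05% of all entries. Between KO_DR and WT_DR muscle 0 of 86 members passed (2 at an unadjusted p under 0.05, 2.23% of all entries called), and between KO_DR and KO_AL muscle 0 of 86 (0 at an unadjusted p under 0.05, 0.500% called). Of all entries, 5.81% and 2.01% were at an unadjusted p under 0.05 in these comparisons, in that order. The intervals there were wide, as for Ndufs5, whose difference between KO_DR and WT_DR was 0.72 with a 95% interval from -0.20 to 1.64. The change of the genotype difference with diet (the interaction, KO_DR less WT_DR minus KO_AL less WT_AL) was called in 0 of 86 members in muscle (2 at an unadjusted p under 0.05 against 2.30% of all entries, and 0.371% of all entries called), with Ndufc2 at -1.66 (SE 0.83) and Ndufc1 at -1.60 (SE 0.76). For Ndufs5, 20.7% of the 54-base stretches of its transcripts are also found in BC002163, a near copy, which read 297, 618, 579 and 699 FPKM in the 4 muscle groups, so its reads may be split between the 2 entries. Ndufc2 and Cox7a2 shared no such stretch with another annotated gene. Red blood cell markers summed to 950, 11582, 1553 and 20283 FPKM in the 4 muscle groups, brown fat markers to 2.79, 149, 3.16 and 29.7 and liver markers to 21.2, 49.1, 2645 and 109, and other short abundant entries had medians of 0.50 in KO_AL and 0.46 in WT_DR muscle, whose part in these differences was not tested. With a t distribution in place of the normal one, or with differences centred on entries under 1 kb, none of the 4 muscle calls passed, and the centred differences were 1.76 for Ndufs5 and 2.00 for Ndufc2 in KO_AL and 1.38 for Ndufc1 and 0.94 for Ndufs5 in WT_DR.

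**Figure D4:**
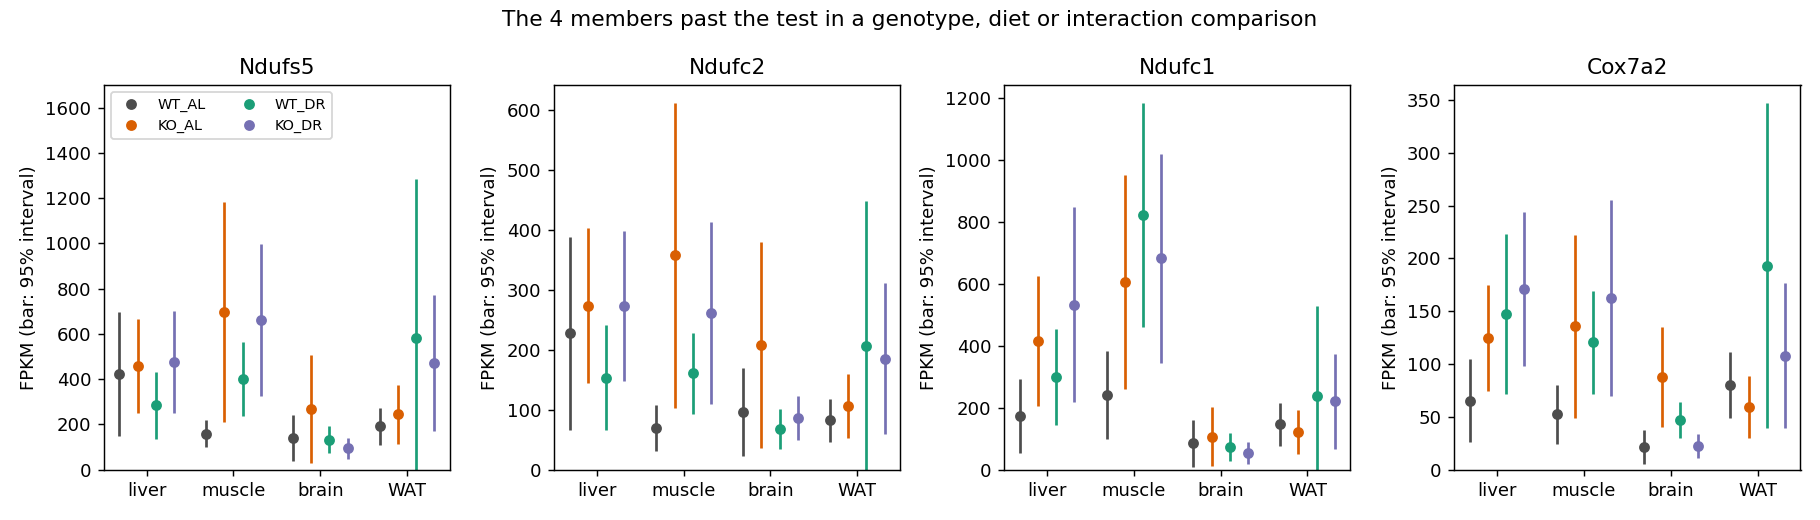
FPKM of Ndufs5, Ndufc2, Ndufc1 and Cox7a2 (vertical axis from 0) in the 16 groups by tissue, with bars for the authors' 95% interval. The 3 complex I subunits are lowest in WT_AL among the muscle groups, at 159.5, 69.7 and 241 FPKM, and Cox7a2 is highest in KO_AL among the brain groups, at 87.9 FPKM.

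In brain, Cox7a2 (GRCm38, chr9:79755361-79759878), the common form of subunit VIIa, depended on both labels. It was at 21.5 FPKM in WT_AL, 87.9 in KO_AL, 46.7 in WT_DR and 22.5 in KO_DR brain. KO_AL was thus the highest and KO_DR was near WT_AL. Cox7a2 fell from KO_AL to KO_DR by 1.97 on the log2 scale (SE 0.53, 95% interval -3.00 to -0.93), the 1 member of 85 called there, where 0.222% of all 15349 entries were called lower. The interaction was -3.08 (SE 0.81, 95% interval -4.67 to -1.50), again the 1 member of 85 called, where 0.236% of 15655 entries were called lower. The separate differences from WT_AL were 2.03 in KO_AL (SE 0.67) and 1.12 in WT_DR (SE 0.61), and that of KO_DR from WT_DR was -1.05 (SE 0.44), none of which passed. Like Cox7a2, subunits encoded by mitochondrial DNA read higher in KO_AL and WT_DR brain than in WT_AL and KO_DR brain: mt-Co2 read 1266, 5699, 7557 and 1560 FPKM and mt-Nd3 178, 1187, 2565 and 154 in WT_AL, KO_AL, WT_DR and KO_DR. Of the 6 measured, mt-Nd3 (-2.94) and mt-Nd5 (-2.58) fell from KO_AL to KO_DR, and mt-Co2, mt-Nd3, mt-Nd5 and mt-Cytb had called interactions between -4.45 and -6.79. Of 60 cytosolic ribosomal proteins tested, whose transcripts are also short, 52 were lower in KO_DR than in KO_AL (median -0.72) and 1 was called, Rpl37 (-2.55). Of the same number 48 had an interaction below 0 (median -0.86) and 3 were called, Rpl37a (-4.30), Rpl37 (-3.52) and Rpl39 (-3.13). Over all entries, 52.2% were higher in KO_DR than in KO_AL and 54.1% had an interaction above 0. Red blood cell markers summed to 1032, 9907, 971 and 3475 FPKM in these brain groups, and their part was not tested. Both Cox7a2 calls were also lost with the t distribution and with the centring on entries under 1 kb, where the differences were -1.68 and -2.81.

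For the other members in brain, 0 of 85 passed in KO_AL against WT_AL (3 at an unadjusted p under 0.05, 0.203% of all entries called), 0 of 85 in WT_DR against WT_AL (0 at an unadjusted p under 0.05, 0.224% called) and 0 of 85 in KO_DR against WT_DR (4 at an unadjusted p under 0.05, 1.16% called). Of all entries, 1.81%, 2.22% and 7.50% were at an unadjusted p under 0.05 in the same order.

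No member passed the Wald test in liver. The counts were 0 of 84 in KO_AL against WT_AL (3 at an unadjusted p under 0.05, 0.316% of all entries called), 0 of 83 in WT_DR against WT_AL (5, 0.236%), 0 of 83 in KO_DR against WT_DR (2, 0.288%), 0 of 85 in KO_DR against KO_AL (0, 0.611%) and 0 of 84 for the interaction (0, 0.0860%). Of all entries in liver, 2.03%, 2.91%, 1.78%, 2.87% and 1.05% were at an unadjusted p under 0.05 in the same order. In WAT the counts were 0 of 86 in KO_AL against WT_AL (0 at an unadjusted p under 0.05, 1.29% of all entries called), WT_DR against WT_AL (2, 0.570%), KO_DR against WT_DR (0, 0.283%), KO_DR against KO_AL (1, 0.707%) and the interaction (0, 0.121%). Of all entries in WAT, 4.48%, 3.56%, 1.505%, 4.03% and 1.56% were at an unadjusted p under 0.05 in the same order. Of members, 2.33% were at that level in WT_DR against WT_AL and 1.16% in KO_DR against KO_AL. The share of members was thus below that of all entries in every WAT comparison, a difference that was not tested.

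Although few members passed singly, most lay on the same side in several comparisons. In KO_AL liver, 75 of 84 members were above WT_AL, with a median of 0.64 on the log2 scale against 0.16 over all entries and 0.55 over other short abundant entries. In WT_DR liver, 71 of 83 were above WT_AL (median 0.54, all entries 0.03, other short abundant entries 0.41). The share of all entries above WT_AL was 61.4% in KO_AL liver and 51.9% in WT_DR liver. In muscle, 74 of 86 were above WT_AL in KO_AL (0.44, all entries -0.05, short abundant 0.50) and 74 of 85 in WT_DR (0.39, all entries -0.06, short abundant 0.46). The share of all entries above WT_AL was 46.9% in KO_AL muscle and 45.7% in WT_DR muscle. Centred on the other short abundant entries, both muscle medians turned to the other side of 0 (-0.06 and -0.07), while those of liver were 0.09 and 0.13. The comparisons of KO_AL and WT_DR share their WT_AL group. WAT differed between the 2 labels: 24 of 86 members were above WT_AL in KO_AL (median -0.19, all entries -0.06, short abundant 0.10) and 75 of 86 in WT_DR (median 0.63, all entries -0.17, short abundant 0.51). Under the KO label, 83 of 86 members in WAT were higher in KO_DR than in KO_AL (median 0.63, all entries 0.01, short abundant 0.42). The share of all entries in WAT above WT_AL was 45.2% in KO_AL and 40.8% in WT_DR, and 50.6% were higher in KO_DR than in KO_AL. In WAT of WT_AL, KO_AL, WT_DR and KO_DR, red blood cell markers summed to 6863, 4297, 12269 and 21030 FPKM, adipocyte markers to 24578, 16529, 28321 and 20974, muscle markers to 536, 1520, 496 and 854 and liver markers to 705, 673, 403 and 101, and their part in these shifts was not tested. The highest single muscle marker read 507 FPKM in WT_AL WAT and 114 in WT_DR WAT, so the WT_AL sum came mostly from that marker. In brain 66 of 85 were above WT_AL in KO_AL (0.39, all entries 0.13, short abundant 0.28) and 48 of 85 in WT_DR (0.10, all entries -0.08, short abundant -0.14), and 24 of 85 were higher in KO_DR than in KO_AL (-0.28, all entries 0.03, short abundant -0.38), a median that was 0.09 when centred on the short abundant entries. The share of all entries in brain above WT_AL was 59.0% in KO_AL and 44.4% in WT_DR, and 52.2% were higher in KO_DR than in KO_AL.

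Over the 16 comparisons the median of members was above that of all entries in 10 and above that of other short abundant entries in 9, and its distance from the latter was never more than 0.33. The median SE of a member was between 0.50 and 1.00, so single differences of these sizes were not detectable. The medians of short and longer members differed in several comparisons. In KO_AL brain, the 37 members with a longest transcript under 1 kb had a median of 0.79 and the 48 longer ones 0.29. In KO_AL muscle these medians were 0.57 and 0.34, and over all entries of that comparison the median went from 0.36 under 1 kb to -0.26 over 4 kb. In WT_DR WAT, where members stood highest against all entries, the medians were 0.71 for short and 0.56 for longer members and -0.04 for all entries under 1 kb. The short members had the lower median in KO_DR brain against KO_AL (-0.43 and -0.23) and against WT_DR (-0.17 and -0.01) and in KO_DR WAT against WT_DR (-0.22 and -0.15).

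**Figure D5:**
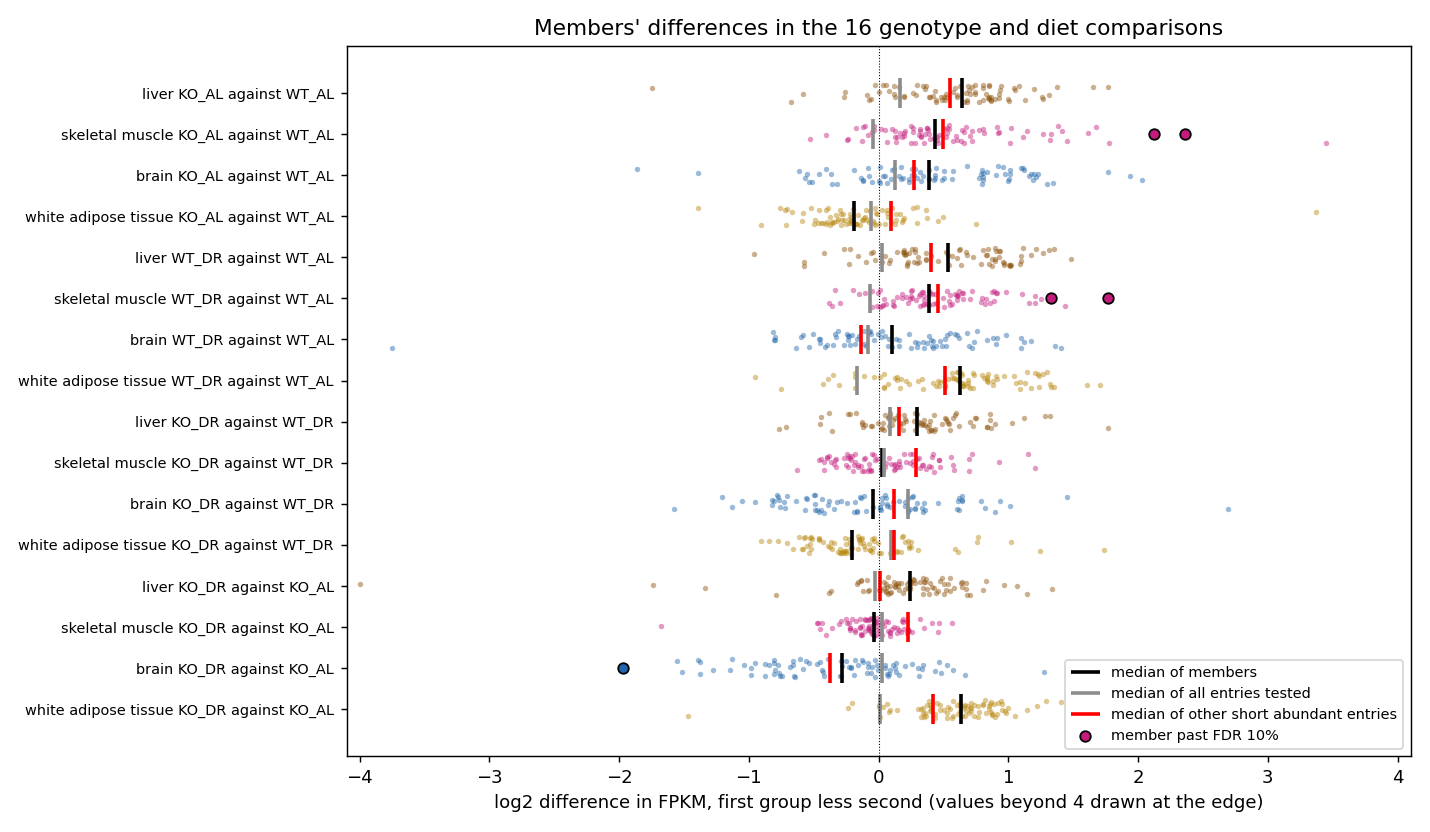
Each point is the log2 difference in FPKM of 1 member between 2 groups of a tissue, 1 row for each of the 16 comparisons, drawn at the edge where beyond 4, with bars for the median of members (black), of all entries (grey) and of other short abundant entries (red). Outlined points are the 5 calls at an FDR of 10%, 4 in muscle and 1 in brain, and the black and red bars lie within 0.33 of each other in every row, with the red bar to the right of the black one in both muscle comparisons with WT_AL.

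Members short of the FDR of 10% but with an unadjusted p under 0.05 recurred between comparisons, and they were singled out after their values were seen. Comparisons within a tissue share groups, so recurrence there is not repeated evidence. The KO_AL and WT_DR differences in muscle share WT_AL muscle, and all Sdhb values in brain below contain KO_AL brain. Cox7a2 was among them in WT_DR liver (1.17, SE 0.57), KO_AL muscle (1.38, SE 0.60), WT_DR muscle (1.21, SE 0.49) and WT_DR WAT (1.27, SE 0.64), each against WT_AL. Cox6b1, which joins the monomers of complex IV on the side between the membranes, was at 132, 423, 357 and 495 FPKM in muscle of WT_AL, KO_AL, WT_DR and KO_DR (1.68, SE 0.62, in KO_AL and 1.44, SE 0.49, in WT_DR). In brain Cox6b1 was at 129, 138, 109 and 47.1 FPKM in the same order, lower in KO_DR than in KO_AL (-1.55, SE 0.69) and than in WT_DR (-1.21, SE 0.45). Ndufs6, an accessory subunit with a zinc site, differed by 1.65 (SE 0.56) in KO_AL liver, 1.41 (SE 0.62) in KO_AL muscle and 1.11 (SE 0.51) in WT_DR muscle. Cox6a1 differed by 1.62 (SE 0.54) between KO_AL and WT_AL muscle and by 1.20 (SE 0.45) between KO_DR and WT_DR muscle, the same direction under both diets. In brain, Sdhb had values of 1.34 (SE 0.64) in KO_AL against WT_AL, -1.37 (SE 0.49) in KO_DR against KO_AL and -2.07 (SE 0.76) for the interaction. In WAT the members at this level were Uqcr10 (1.71, SE 0.80) and Cox7a2 in WT_DR and Ndufa13 (1.29, SE 0.58) in KO_DR against KO_AL. In the genotype and diet comparisons of muscle and liver, every member at this level was higher in the first group named. None of these values passed the correction over all entries.

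The complexes did not separate in most of these comparisons. In KO_AL liver the medians of complexes I to V were 0.69, 0.44, 0.58, 0.74 and 0.52. In KO_DR WAT against KO_AL they were 0.71, 0.39, 0.56, 0.64 and 0.66, with all 8 members of complex III and all 4 of complex II above KO_AL. Complex V stood lower than the others in KO_AL muscle (0.14, with 8 of 15 above WT_AL, against 0.26 to 0.60) and in KO_AL brain (0.06, with 10 of 15 above, against 0.17 to 0.49), a difference that was not tested. The 4 genes of complex II were all above WT_AL in KO_AL liver, KO_AL muscle, WT_DR muscle and WT_DR WAT. Some of these differences were close to 0, as for Sdhd in KO_AL liver (0.0036, SE 0.53). The same held for Sdha in WT_DR muscle (0.014, SE 1.38) and Sdhc in WT_DR WAT (0.043, SE 1.06). Within muscle and within liver, the largest differences of complex II from WT_AL were that of Sdhc in muscle (1.11 in KO_AL, from 166 to 359 FPKM) and that of Sdhb in liver (1.27 in WT_DR, from 62.7 to 151 FPKM), and neither passed the test.

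Genes around the chain were counted in the same comparisons. Of 12 regulators of mitochondrial biogenesis, Yy1 fell in WT_DR muscle (-1.69), and 0 were called in KO_AL muscle. Assembly factors outside the rule had medians of 0.09 in KO_AL muscle and 0.26 in WT_DR muscle with 0 of 33 and 0 of 34 called, and enzymes of the citric acid cycle 0.15 and 0.06 with 0 of 13 called in both. In brain the subunits encoded by mitochondrial DNA rose in KO_AL in 2 of 6 cases, mt-Nd3 by 2.74 and mt-Nd5 by 3.10, where 0.203% of all entries were called in either direction, and 0 of 34 assembly factors and 0 of 13 citric acid cycle enzymes were called. Cytosolic ribosomal proteins had medians of 0.91 in KO_AL liver and 1.08 in WT_DR liver with 0 of 60 called, above those of the members.

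Reads of some members cannot be assigned with certainty. Of the 88 members, 46 shared at least 1 stretch of 54 bases, the shortest read kept, with another annotated gene and 42 shared none, and the median share was 0.2%. The largest shares were those of Ndufaf2 (63.9%), Ndufb6 (31.0%), Ndufa13 (27.9%), Uqcrb (24.0%) and Cox7c (21.7%). Atp5l-ps1, a copy left out for its name, read 224 FPKM in WT_AL muscle, and 4 joined entries that hold Atp5g2, Atp5o, Ndufb8 and Ndufb2 were left out by the rule. Of these, the entry with Atp5o was at 78.7 FPKM in WT_AL liver, 208 in KO_AL, 220 in WT_DR and 255 in KO_DR.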

How the data were processed

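Poly-A RNA of liver, skeletal muscle, brain and white adipose tissue was sequenced on an Ion Proton in 43 libraries. Per the labels and the study's methods, the authors trimmed reads with cutadapt 1.5 and sickle (reads of at least 54 bases kept), aligned them to GRCm38 with BBMap and ran Cuffdiff 2.2.1 with correction for multiply mapped reads, scaling the libraries by the geometric mean across samples. The deposited values are FPKM pooled over the libraries of each of the 16 groups, with 95% bounds and a status, so no count test, no value per library and no depth was available for the tests here. The files also hold the authors' status for each estimate, and only entries with status OK in all groups compared were tested.

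The SD of a group was taken as the upper bound less the FPKM, divided by 2. Differences in log2 FPKM, without a pseudocount, were tested with a two-sided Wald test (delta method, normal reference) for entries above 0 in all groups compared and at 1 FPKM or more in at least 1, with a Benjamini-Hochberg correction over all entries tested in that comparison and a call at an FDR of 10%. The p-values measure only the spread that the authors' model gives, and libraries of different tissues may come from the same mice. Comparisons were 16 of genotype or diet within a tissue, 4 interactions and 6 tissue pairs within WT_AL. Alternatives were a pseudocount of 1, no minimum FPKM, the SD divided by the root of the number of libraries, an FDR of 5%, a t distribution, centring on all entries, on entries under 1 kb or on short abundant entries, and the tissue pairs in the other groups. Named were all members called in a genotype, diet or interaction comparison, the alternative forms, the highest and lowest member of each complex in WT_AL, the 3 largest calls per tissue pair and direction, the Sdh genes and called genes of the pathway lists; other names were chosen after their values were seen. An item that this rule would name is not reported here. The members and lists were chosen with earlier results of these data known. Lists were muscle, liver, adipocyte, brown fat, neuron, glia, red blood cell, immune and epithelium markers and 6 lists of pathway genes. Names and lengths were taken from the GENCODE M21 annotation of GRCm38, promoters from RefSeq windows of GRCm38.p6. The calculation of the test was checked on simulated data whose spread was the SD handed to the test. That check cannot show whether the SD taken from the authors' bounds is the right error for 2 or 3 libraries. Python 3.11.15, numpy 2.4.6, pandas 2.3.3, scipy 1.17.1 and matplotlib 3.10.9 were used.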

Additional observations from a re-analysis of the deposited data

Results flagged for a closer look

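Cox7a2 in brain stood out because its genotype difference was not the same under both diets. The difference of KO_AL from WT_AL was 2.03 on the log2 scale and that of KO_DR from WT_DR was -1.05, so the interaction was -3.08 (SE 0.81, 95% interval from -4.67 to -1.50) and passed the FDR of 10% over all entries by the Wald test, a call that was lost at an FDR of 5%, with a t distribution and when differences were centred on entries under 1 kb (-2.81) or on short abundant entries (-2.87). The levels behind it were 21.5 FPKM in WT_AL, 87.9 in KO_AL, 46.7 in WT_DR and 22.5 in KO_DR. Of the 6 subunits encoded by mitochondrial DNA, 4 had called interactions of the same sign in brain.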

How the results depend on the processing

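The counts of members called depended mostly on how the spread was read from pooled values. All counts of this section are of members alone, without the share of all entries called under the same setting. They therefore do not show whether members were called more often than other entries. With the SD divided by the root of the number of libraries, the counts in liver were 2 (KO_AL against WT_AL), 5 (WT_DR against WT_AL), 2 (KO_DR against WT_DR) and 2 (KO_DR against KO_AL). In muscle they were 9 (KO_AL against WT_AL), 9 (WT_DR against WT_AL), 3 (KO_DR against WT_DR) and 3 (interaction). In brain they were 2 (KO_AL against WT_AL), 12 (KO_DR against WT_DR), 7 (KO_DR against KO_AL) and 5 (interaction), and in WAT 2 (KO_AL against WT_AL), 1 (WT_DR against WT_AL) and 7 (KO_DR against KO_AL). The tissue pairs then gave 36 (muscle and liver), 55 (muscle and WAT), 39 (brain and liver), 20 (WAT and liver) and 29 (brain and WAT). With a t distribution 0 members were called in muscle KO_AL and WT_DR against WT_AL, in brain KO_DR against KO_AL, in the brain interaction and in all 6 tissue pairs, and all 42 named calls were lost. At an FDR of 5%, 0 remained in muscle WT_DR against WT_AL, brain KO_DR against KO_AL and the brain interaction, 6 in brain against liver and 4 in brain against WAT, and 16 named calls were lost.

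Centred on entries under 1 kb, 0 were called in those 4 muscle and brain comparisons, 22 between muscle and brain, 1 between brain and liver (member median -0.30) and 5 between brain and WAT (median 0.26). Centred on other short abundant entries, an alternative chosen after seeing the data, the counts were 0 in the same 4 comparisons, 27, 1 (median -0.27) and 5, and the 2 centrings lost 20 and 23 named calls. Tissue pairs in the other groups gave, in KO_AL, 33 for brain and liver, 35 for WAT and liver (median -1.14), 4 for brain and WAT (median 0.048) and a median of 1.76 for muscle and WAT. In WT_DR they gave 71 for muscle and brain, 7 for muscle and WAT, 52 for brain and liver and 2 for WAT and liver, and in KO_DR 66 for muscle and brain, 19 for muscle and WAT, 61 for brain and liver and 28 for brain and WAT. Of the named members, Ndufc2 turned between muscle and liver in KO_AL (0.39) and WT_DR (0.066), and Ndufb4 (0.058) and Sdhb (0.063) turned between brain and WAT in KO_AL. Ndufs5, the fourth member called lower in muscle than in liver, was higher in muscle in KO_AL, WT_DR and KO_DR. For all of these the cause was not tested. A pseudocount of 1 and centring on all entries kept the side of the threshold of all 42 named calls and every count within 1.5 times, and without the minimum FPKM 4 named calls were lost.

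No paired analysis was possible because the table holds 1 pooled value per group, and for the same reason no library was left out in turn. Depth is unknown, WT_AL has 2 libraries per tissue, and the median SE of a member was between 0.50 and 1.00 on the log2 scale in the genotype and diet comparisons, which limits what these comparisons resolve.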
